A study of Mus musculus with 12 samples.

Results

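The collagen genes described here were chosen by symbol alone, as every gene named Col, a number, a and a number, with the basement membrane genes Col4a1 to Col4a6 left out. This gave 38 of the 25655 genes counted. Of these, 37 had 10 or more counts in at least 3 of the 9 libraries whose counts carry a library name. Col28a1 did not, and its highest count in a library was 6. Closest above this minimum were Col13a1, with 10 or more counts in 4 libraries, and Col6a5, in 5 libraries.

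The 12 samples of the series were whole retinas of C57BL/6J mice (C57BL/6 in the strain label) aged 8 to 10 weeks, all with optic nerve crush (ONC) and an intravitreal injection, collected 2 days after ONC for total RNA sequencing. The 4 groups of 3 samples received PBS, fluvastatin, matrix-bound nanovesicles (MBV), or MBV and fluvastatin together. Fluvastatin is a statin, an inhibitor of cholesterol synthesis, and MBV are vesicles isolated from the extracellular matrix of porcine urinary bladder. The combined treatment was not analysed here, because its count columns carry no library name. In the labels PBS and fluvastatin hold library numbers 1 to 3, and MBV and the combined treatment hold 4 to 6. These were read as 2 sets, PBS with the combined treatment and fluvastatin with MBV. The numbers alone do not settle this reading or say what the sets are. Read in this way, any difference from PBS cannot be told apart from a difference between the sets. Of the groups analysed here, only MBV and fluvastatin could then be compared within a set. The labels do not say that the 3 samples of a group came from separate animals, so p-values measure the spread between these samples.

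Each library had 21349516 to 30992040 counts on genes. Fluvastatin replicate 1 and MBV replicate 3 stood apart from the other libraries of their groups, so results that rest on them are given with and without them. They were picked after the values were seen, so a smaller adjusted p without them is no further support. All 6 retinal markers used, among them the photoreceptor gene Rcvrn and the Müller glia gene Glul, were detected, 2 were called higher and 2 lower with fluvastatin and 1 lower with MBV, and their summed level ran from 1995 to 4069 CPM (counts per 1000000 counts on genes, scaled between libraries). In such bulk samples, fewer cells of a type and less RNA per cell cannot be told apart.

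Collagens are extracellular matrix proteins whose alpha chains wind into a helix. Fibrillar collagens assemble into the banded fibres of connective tissue, and in the eye collagens II, V, XI and IX form the fine fibrils of the vitreous, while collagen I fills the sclera. Fibril-associated collagens coat such fibrils, beaded filament and network collagens build meshes near cells, transmembrane collagens sit in the plasma membrane with the collagen domain outside, and the multiplexins XV and XVIII belong to basement membranes, including the one that lines the retina towards the vitreous.

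In the PBS retina, levels per kilobase of exon spanned from 0.0348 ± 0.00922 CPM per kb (SD, n = 3) for Col6a5 to 15.7 ± 0.618 CPM per kb for Col23a1, a transmembrane collagen. Next came the multiplexin gene Col18a1, whose cleaved end is endostatin, at 14.4 ± 1.9 CPM per kb, and its range overlapped that of Col23a1. Below them and apart from each other lay Col9a1, with 8.38 ± 0.938 CPM per kb, and its fibril partner Col2a1, with 6.2 ± 0.221 CPM per kb. Col6a1 led the beaded filament genes at 4.98 ± 0.464, Col8a2 the network genes at 1.29 ± 0.144, and Col26a1 was the one member outside the named classes that passed, at 0.512 ± 0.0427 CPM per kb. The skin and bone collagen gene Col1a1 reached 0.678 ± 0.118 CPM per kb, and the vessel wall collagen gene Col3a1 only 0.102 ± 0.0143, rank 35 of 37 in that order.

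Compared to PBS, 14 of the 37 members were higher and 2 lower with fluvastatin, at an adjusted p under 0.05 by edgeR's quasi-likelihood test. Of all 18818 genes tested in this comparison, 9.36% were called higher and 10.2% lower. These include genes below the count minimum that the 37 members passed. Of the 15322 genes past that minimum, 1754 were called higher and 1899 lower. The median log2 fold change of the members was 0.21, beside -0.01 over all genes tested. With MBV, 16 members were higher and 1 lower than with PBS, beside 12% called higher and 14.1% called lower of 18897 genes. The members' median log2 fold change was 0.36, beside 0.01 over all genes tested. Past the count minimum, 2247 of 15322 genes were called higher and 2632 lower with MBV. These shares of all genes also stand beside the counts by class and by marker list. Both comparisons use the same PBS libraries. Col3a1, Col5a3, Col11a1, Col11a2, Col24a1, Col8a1, Col6a1, Col6a2, Col6a6, Col7a1, Col12a1, Col20a1 and Col25a1, which are 13 in all, were called higher in both, Col19a1 was called lower in both, and Col1a1 was called in opposite directions. The calls with fluvastatin were the less stable. Of its 16 called members, 7 lost the call without PBS replicate 1, 6 without PBS replicate 2, 9 without fluvastatin replicate 2 and 5 without fluvastatin replicate 3, and 7 (Col11a2, Col6a1, Col6a2, Col6a6, Col7a1, Col19a1 and Col20a1) were called under every alternative but the minimum change of 2-fold, which no member reached with fluvastatin. Leaving out single libraries took the call from 0 to 4 of the 17 members called with MBV.

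**Figure D1:**
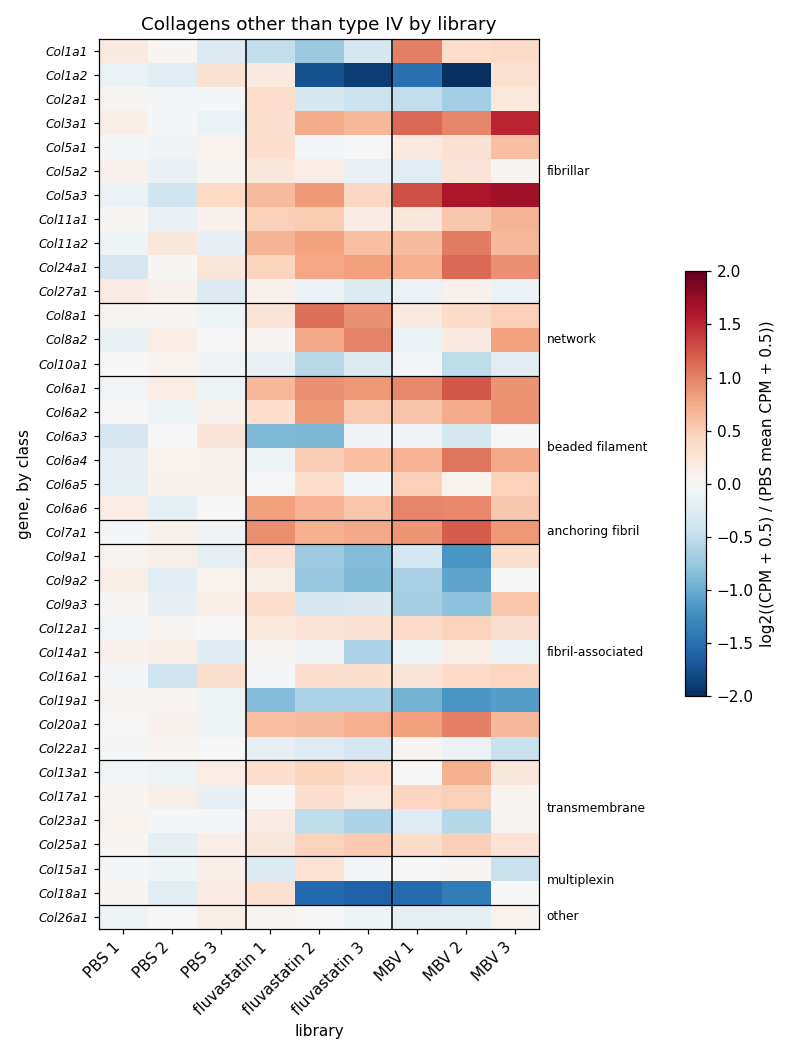
Level of each of the 37 collagen genes (rows, by class) in each of the 9 libraries (columns), as log2((CPM + 0.5)/(PBS mean CPM + 0.5)), red above and blue below the PBS mean. Col6a1, Col7a1 and Col20a1 are red in all 6 treated libraries, and Col18a1 and Col1a2 are deep blue in fluvastatin replicates 2 and 3 and MBV replicates 1 and 2 only.

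**Figure D2:**
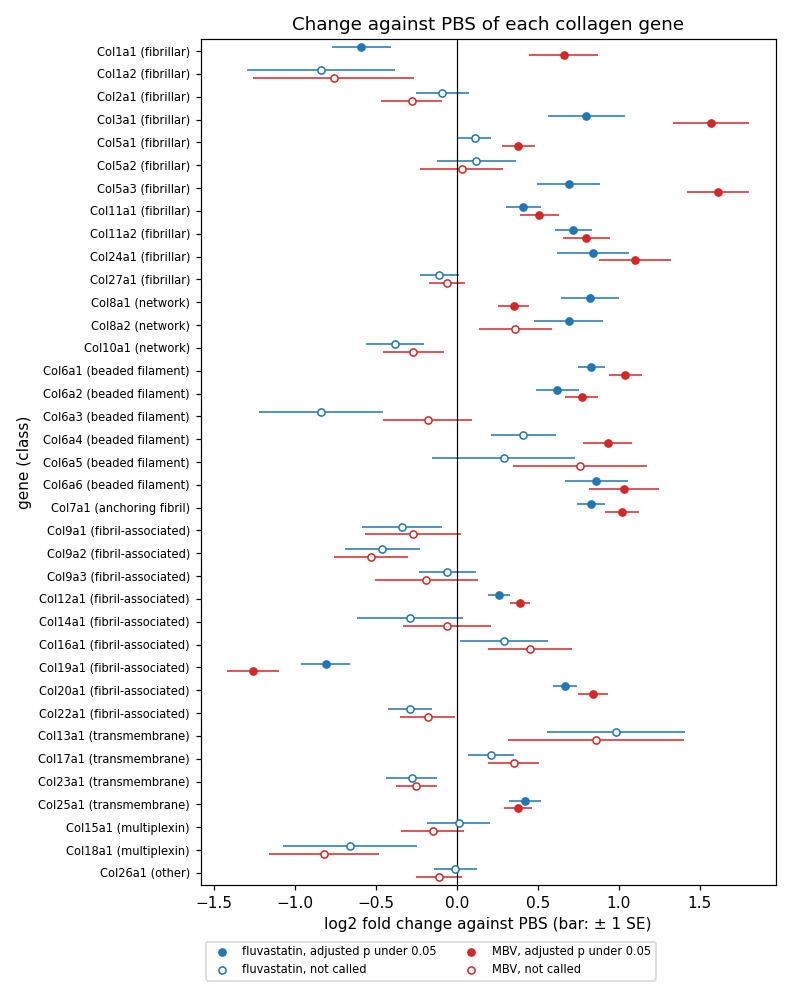
Log2 fold change against PBS of each of the 37 genes with fluvastatin (blue) and MBV (red), with bars of ± 1 SE and filled symbols at an adjusted p under 0.05. Col3a1 (1.57) and Col5a3 (1.61) lie farthest to the right with MBV, Col19a1 lies to the left with both, and Col1a1 lies on opposite sides.

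Beaded filament collagens make up collagen VI, a microfilament around cells that binds other matrix proteins. Its chain genes Col6a1 and Col6a2 rose with both treatments. Col6a1 (chr10:76544626-76562002, minus strand, GRCm39) had 27.9, 32.2 and 27.2 CPM with PBS, 46.6, 55.3 and 53.5 CPM with fluvastatin, and 56.9, 69.9 and 54.6 CPM with MBV. Neither treated group overlapped PBS. The rise was 1.78-fold with fluvastatin (log2 0.83 ± 0.0835 SE, adjusted p = 0.000532) and 2.06-fold with MBV (log2 1.04 ± 0.102 SE, adjusted p = 0.000531), the smallest adjusted p of any member in both comparisons. Col6a2, which lies 85.2 kb away on the same strand, had 7.8, 7.23 and 8.32 CPM with PBS, 10, 14.5 and 11.4 CPM with fluvastatin, and 11.8, 13.3 and 14.9 CPM with MBV. It rose by 0.62 (adjusted p = 0.00972) and 0.77 (adjusted p = 0.00132) on the log2 scale.

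The other chains of collagen VI gave different values. Col6a4, Col6a5 and Col6a6 lie in a row on chromosome 9, with gaps of 27.9 and 28.8 kb. Col6a6 had 1.75, 1.3 and 1.56 CPM with PBS, 3.09, 2.8 and 2.5 CPM with fluvastatin, and 3.51, 3.47 and 2.48 CPM with MBV, so that no treated library overlapped PBS, and the log2 changes were 0.86 (adjusted p = 0.0118) and 1.03 (adjusted p = 0.00832). Col6a4 had 3.09, 3.72 and 3.76 CPM with PBS, 3.25, 5.16 and 5.6 CPM with fluvastatin, and 5.99, 7.95 and 6.29 CPM with MBV. It rose with MBV (log2 0.93, adjusted p = 0.00296), whereas with fluvastatin its log2 change of 0.41 did not pass (adjusted p = 0.186) until fluvastatin replicate 1 was left out (log2 0.61, adjusted p = 0.011). Col6a5, at 0.227 to 0.658 CPM, and Col6a3, another chain gene of collagen VI, at 0.523 to 1.79 CPM, were not called in either comparison. The log2 change of Col6a3 was -0.84 with fluvastatin (adjusted p = 0.16) and -0.18 with MBV (adjusted p = 0.672).

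Anchoring fibrils are made of collagen VII alone and tie basement membranes to the stroma below. Col7a1 (chr9:108782654-108813943, plus strand, GRCm39) had 10.6, 11.6 and 10.4 CPM with PBS, 21.1, 18.2 and 18.7 CPM with fluvastatin, and 20.6, 25.9 and 20.4 CPM with MBV. The lowest treated library was above the highest PBS library. Its log2 change was 0.83 ± 0.0876 SE with fluvastatin (adjusted p = 0.000632) and 1.02 ± 0.103 SE with MBV (adjusted p = 0.000536).

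Of the 11 fibrillar genes, 5 rose and 1 fell with fluvastatin, beside 9.36% called higher and 10.2% called lower of all genes. With MBV 7 rose, beside 12% called higher of all genes. Col3a1 (chr1:45350698-45388866, plus strand, GRCm39), the chain of collagen III of vessel walls, had 1.2, 1.02 and 0.912 CPM with PBS, 1.44, 2.09 and 1.95 CPM with fluvastatin, and 2.89, 2.56 and 3.98 CPM with MBV. The 3 groups did not overlap in CPM, which rest on 24 to 37 counts per PBS library, 35 to 56 per fluvastatin library and 56 to 93 per MBV library. Its log2 change was 1.57 ± 0.236 SE with MBV (adjusted p = 0.00199) and 0.80 ± 0.237 SE with fluvastatin (adjusted p = 0.0387), and the call with fluvastatin was lost under 8 of the alternatives, with an adjusted p of up to 0.136 without fluvastatin replicate 2. Its neighbour Col5a2, a collagen V chain gene whose 3′ end lies 24.6 kb from that of Col3a1, was not called and stayed between 0.95 and 1.51 CPM.

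Col5a3 (chr9:20681346-20726363, minus strand, GRCm39) encodes a further chain of collagen V, which limits fibril width. It had 5.91, 4.81 and 8.7 CPM with PBS, 10.3, 12.1 and 8.78 CPM with fluvastatin, and 16.6, 21.1 and 21.9 CPM with MBV. The MBV libraries were all above the others, while the lowest fluvastatin library was barely above the highest PBS library. The log2 change was 1.61 ± 0.191 SE with MBV (3.06-fold, adjusted p = 0.000801) and 0.69 ± 0.195 SE with fluvastatin (adjusted p = 0.0319, and up to 0.144 without PBS replicate 1 or 2 or fluvastatin replicate 2). Col5a1, the main collagen V chain, had 17.2, 16.6 and 18.3 CPM with PBS, 22, 16.8 and 17.4 CPM with fluvastatin, and 19.9, 21.7 and 26.6 CPM with MBV. With MBV it rose by 0.38 on the log2 scale (adjusted p = 0.0251, and up to 0.0862 without PBS replicate 1 or 2), and its log2 change with fluvastatin was 0.11 (adjusted p = 0.511).

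Collagen XI starts the thin fibrils of cartilage and vitreous. Col11a2 had 8.97, 11.2 and 8.47 CPM with PBS, 15.5, 17 and 14.8 CPM with fluvastatin, and 15, 20.2 and 15.2 CPM with MBV. Col11a1 had 12.5, 11.1 and 13.1 CPM with PBS, 17.3, 17.7 and 13.9 CPM with fluvastatin, and 14.5, 18 and 20.1 CPM with MBV. Both chains rose without overlap with PBS, Col11a2 by 0.72 (adjusted p = 0.00261) and 0.80 (adjusted p = 0.00408) and Col11a1 by 0.41 (adjusted p = 0.0222) and 0.51 (adjusted p = 0.0142) on the log2 scale, in the order fluvastatin, MBV. The calls of Col11a1 were lost without PBS replicate 2, and with fluvastatin also without PBS replicate 1 or fluvastatin replicate 2, with adjusted p up to 0.0985. The minor fibrillar gene Col24a1 had 1.33, 1.84 and 2.24 CPM with PBS, 2.64, 3.44 and 3.56 CPM with fluvastatin, and 3.29, 4.57 and 3.85 CPM with MBV, again without overlap, with log2 changes of 0.84 (adjusted p = 0.0244, and up to 0.0988 without PBS replicate 1 or 2 or fluvastatin replicate 2 or 3) and 1.10 (adjusted p = 0.00725). Col2a1, the most abundant fibrillar gene per kilobase, had 60.4, 56.7 and 56.9 CPM with PBS, 74.4, 46.6 and 43 CPM with fluvastatin, and 41.1, 36.1 and 67.2 CPM with MBV, and was not called in either comparison. Col27a1, at 21.7 to 29.5 CPM, was not called either.

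Collagen I is built from the products of Col1a1 and Col1a2, and these genes gave different calls. Col1a1 (chr11:94827050-94843868, plus strand, GRCm39) had 5.13, 4.61 and 3.61 CPM with PBS, 3.01, 2.47 and 3.43 CPM with fluvastatin, and 9.43, 5.8 and 5.95 CPM with MBV. All fluvastatin libraries lay below PBS and all MBV libraries above it. The log2 change was -0.59 ± 0.181 SE with fluvastatin (adjusted p = 0.0441) and 0.66 ± 0.213 SE with MBV (adjusted p = 0.0486). Neither call was firm. With fluvastatin it was lost without PBS replicate 1 (adjusted p = 0.183), without PBS replicate 2 and without fluvastatin replicate 2, and with MBV it was lost without MBV replicate 1 (adjusted p = 0.166) and without any one of the PBS libraries. The sign did not change under any of these settings. Col1a2 had 15.5, 14.5 and 21 CPM with PBS, 19.6, 4.75 and 4.2 CPM with fluvastatin, and 5.74, 3.61 and 21 CPM with MBV, with log2 changes of -0.84 (adjusted p = 0.235) and -0.76 (adjusted p = 0.304). Without fluvastatin replicate 1 both genes were called lower with fluvastatin, Col1a1 at -0.60 (adjusted p = 0.044) and Col1a2 at -1.92 (adjusted p = 9.5e-06). Without MBV replicate 3 Col1a1 was called higher at 0.77 (adjusted p = 0.0129) and Col1a2 lower at -1.85 (adjusted p = 4.75e-05). These libraries were picked after their values were seen, so the smaller adjusted p of Col1a2 is no further support.

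**Figure D3:**
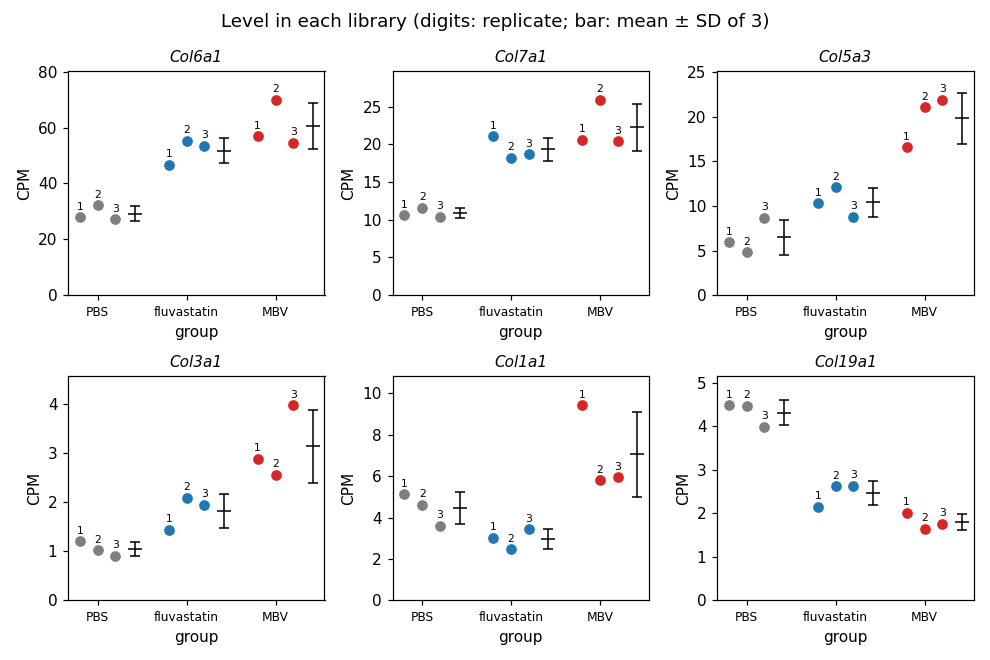
CPM in each library (points, numbered by replicate) of Col6a1, Col7a1, Col5a3, Col3a1, Col1a1 and Col19a1 with PBS (grey), fluvastatin (blue) and MBV (red), beside the mean ± SD of 3 libraries. Col6a1 and Col7a1 of both treated groups lie above every PBS library, Col1a1 lies below PBS with fluvastatin and above it with MBV, and Col19a1 falls from 3.99 or more with PBS to 2.63 or less.

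Among the 9 fibril-associated genes, 2 rose and 1 fell with each treatment. Of all genes, 9.36% were called higher and 10.2% lower with fluvastatin, and 12% and 14.1% with MBV. With so few genes, these counts are not read as a trait of the class. Col20a1 had 14.7, 15.6 and 13.8 CPM with PBS, 22.6, 23.1 and 24.7 CPM with fluvastatin, and 26.3, 30 and 23.4 CPM with MBV. Col12a1, a collagen that bridges collagen I fibrils, had 19.1, 20.8 and 19.8 CPM with PBS, 23, 24.2 and 24.6 CPM with fluvastatin, and 26.1, 27.5 and 25 CPM with MBV. Both were higher in every treated library than in any PBS library, Col20a1 by 0.67 (adjusted p = 0.000763) and 0.84 (adjusted p = 0.000678) and Col12a1 by 0.26 (adjusted p = 0.0193) and 0.39 (adjusted p = 0.00301) on the log2 scale. The call of Col12a1 with fluvastatin was lost without PBS replicate 1 (adjusted p = 0.0946), fluvastatin replicate 2 or fluvastatin replicate 3. Over the 9 libraries, the genes whose log2 CPM followed Col6a1 most closely were Col20a1 (Pearson r = 0.990), Nova2, Agbl5 and Inpp5b (each 0.985) and Col12a1 (0.984), a description over libraries that share their groups and sets.

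Col19a1 (chr1:24300971-24626553, minus strand, GRCm39), a fibril-associated collagen that some neurons also make, was the member that fell with both treatments. It had 4.48, 4.47 and 3.99 CPM with PBS, 2.14, 2.62 and 2.63 CPM with fluvastatin, and 2.01, 1.64 and 1.75 CPM with MBV. The 3 groups did not overlap. Its log2 change was -0.81 ± 0.151 SE with fluvastatin (adjusted p = 0.00527) and -1.26 ± 0.16 SE with MBV (adjusted p = 0.000992). The 3′ end of Col9a1 lies only 9.21 kb away, and Col9a1 had 44.4, 46 and 37.1 CPM with PBS, 52.1, 25.5 and 23.2 CPM with fluvastatin, and 33.2, 18.6 and 54.6 CPM with MBV, with no call in either comparison. Col9a2 (5.57 to 13.3 CPM), Col9a3 (6.3 to 17.1 CPM), Col14a1 (0.509 to 1.19 CPM), Col16a1 (1.02 to 2.18 CPM) and Col22a1 (2.74 to 4.09 CPM) were not called.

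Of the 3 network genes, Col8a1, the chain of the collagen VIII mesh found in vessels and in the membrane behind the cornea, had 10.3, 10.1 and 9.31 CPM with PBS, 11.9, 21.7 and 19 CPM with fluvastatin, and 11.4, 12.9 and 13.9 CPM with MBV. It rose without overlap by 0.82 ± 0.18 SE with fluvastatin (adjusted p = 0.0106, and 0.0518 without fluvastatin replicate 2) and by 0.35 ± 0.0931 SE with MBV on the log2 scale (adjusted p = 0.0227, up to 0.0655 without any one PBS library or MBV replicate 2, and 0.163 in 1 fit of all 9 libraries). The partner chain Col8a2 had 5.82, 7.27 and 6.46 CPM with PBS, 6.71, 11.4 and 13.4 CPM with fluvastatin, and 5.92, 7.49 and 11.8 CPM with MBV. Its call with fluvastatin (log2 0.69, adjusted p = 0.0448) came with overlapping groups and was lost without any one library except fluvastatin replicate 1, with an adjusted p of up to 0.16. Col10a1, the growth plate collagen, was at 1.87 to 3.17 CPM and was not called.

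Among the 4 transmembrane genes, Col25a1, a neuronal collagen, was called. It had 22.8, 19.5 and 24.4 CPM with PBS, 26.2, 30.7 and 32.3 CPM with fluvastatin, and 28.8, 31.2 and 27.2 CPM with MBV, without overlap. Its log2 change was 0.42 ± 0.0963 SE with fluvastatin (adjusted p = 0.0132, and up to 0.0652 without fluvastatin replicate 2 or 3) and 0.38 ± 0.0867 SE with MBV (adjusted p = 0.0125). Col23a1 had 97.3, 91.2 and 90.7 CPM with PBS, 104, 65.6 and 60.8 CPM with fluvastatin, and 77.4, 62.7 and 96.9 CPM with MBV, and was not called. Col13a1, a collagen of the neuromuscular junction, at 0.171 to 0.685 CPM, and Col17a1, a hemidesmosome collagen, at 4.03 to 6.58 CPM, were not called either. Neither were the multiplexin gene Col15a1, at 2.01 to 3.66 CPM, and Col26a1, with 3.87, 4.13 and 4.56 CPM with PBS, 4.37, 4.22 and 3.9 CPM with fluvastatin, and 3.62, 3.65 and 4.41 CPM with MBV.

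The bases just before the start of a gene hold part of its promoter, and RefSeq windows (build GRCm38.p6) were found for 30 of the 38 members. The windows of 4 members that rose with both treatments and of Col19a1, which fell with both, are shown as the 250 bases before the start, 5′ to 3′ on the gene's strand. Capitals mark 3 motifs, each searched on both strands, and no matches overlap in these windows. The first, the TATA motif, was searched as TATAAA in full. Next was the CCAAT motif, with no further letters. The last was the GC motif that the factor Sp1 is known to bind, searched as GGGCGG.
Col3a1 (chr1:45311288-45311537, + strand): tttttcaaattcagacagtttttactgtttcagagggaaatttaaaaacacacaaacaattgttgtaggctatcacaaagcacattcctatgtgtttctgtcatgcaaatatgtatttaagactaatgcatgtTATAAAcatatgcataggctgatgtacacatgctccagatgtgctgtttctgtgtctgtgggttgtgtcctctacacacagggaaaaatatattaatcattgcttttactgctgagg
Col5a3 (chr9:20815068-20815317, - strand): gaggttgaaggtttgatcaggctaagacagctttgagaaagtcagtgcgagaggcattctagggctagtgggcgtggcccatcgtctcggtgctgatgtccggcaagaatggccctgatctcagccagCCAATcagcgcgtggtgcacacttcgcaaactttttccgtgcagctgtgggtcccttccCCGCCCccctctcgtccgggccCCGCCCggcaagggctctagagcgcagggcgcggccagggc
Col6a1 (chr10:76726045-76726294, - strand): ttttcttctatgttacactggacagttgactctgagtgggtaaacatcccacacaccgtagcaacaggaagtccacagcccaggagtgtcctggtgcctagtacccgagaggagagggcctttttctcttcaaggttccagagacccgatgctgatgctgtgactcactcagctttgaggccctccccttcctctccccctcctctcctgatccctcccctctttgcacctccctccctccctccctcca
Col7a1 (chr9:108953336-108953585, + strand): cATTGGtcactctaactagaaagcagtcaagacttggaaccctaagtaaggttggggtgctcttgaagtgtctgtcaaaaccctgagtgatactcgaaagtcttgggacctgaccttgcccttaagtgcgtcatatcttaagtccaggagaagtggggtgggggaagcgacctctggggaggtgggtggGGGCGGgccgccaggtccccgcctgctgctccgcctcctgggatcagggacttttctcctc
Col19a1 (chr1:24587438-24587687, - strand): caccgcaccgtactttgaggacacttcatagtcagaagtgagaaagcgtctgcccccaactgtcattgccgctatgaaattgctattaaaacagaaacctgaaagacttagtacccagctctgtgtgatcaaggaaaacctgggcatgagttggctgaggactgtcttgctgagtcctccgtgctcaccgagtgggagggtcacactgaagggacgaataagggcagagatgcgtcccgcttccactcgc
Col3a1 held 1 TATA motif, its first base 117 bases before the start, and no other motif. Col5a3 held 1 CCAAT motif and 2 GC motifs on the other strand, and Col7a1 held 1 CCAAT motif on the other strand and 1 GC motif. Col6a1 and Col19a1 held none of them. Over all 32851 windows of this length, 12.4% held the TATA motif, 33.8% the CCAAT motif and 32.7% the GC motif on either strand, beside 5, 10 and 19 of the 33 windows of members. Of the 12 members with a window that rose with both treatments, 2 held the TATA motif, 4 the CCAAT motif and 8 the GC motif. These are matches of letters and not measured binding sites.

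Col18a1 showed how far libraries of a group could differ. It had 105, 87.3 and 114 CPM with PBS, 126, 34.4 and 32.9 CPM with fluvastatin, and 34.8, 38.4 and 101 CPM with MBV. Fluvastatin replicate 1 and MBV replicate 3 were near PBS, and the other 4 treated libraries were at 32.3% to 37.7% of the PBS mean. Across each whole group the log2 change was -0.66 ± 0.413 SE (adjusted p = 0.304) and -0.82 ± 0.342 SE (adjusted p = 0.111). Without fluvastatin replicate 1 it was -1.60 (adjusted p = 3.83e-07), and without MBV replicate 3 it was -1.49 (adjusted p = 1.71e-06). As the libraries left out were picked for being unlike the rest of their groups, these small p-values are no further support.

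The same 4 libraries lay below all others for 7 members, Col1a2, Col2a1, Col9a1, Col9a2, Col9a3, Col23a1 and Col18a1, a set noticed after the values were seen. The share of all genes with this pattern is not given, so the 7 cannot be read as a trait of collagens. Without fluvastatin replicate 1, 15 members were called higher and 9 lower than PBS, beside 11.4% called higher and 12.1% called lower of 18725 genes. Those 9 include the 7, which had been noticed for low values in the libraries kept, so this is no further support. Without MBV replicate 3, 17 members were called higher and 8 lower, beside 14% called higher and 16.1% called lower of 18793 genes, and those 8 were the 7 noticed and Col19a1.

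Some markers of other cells, and of the retina, moved with these libraries. Fbln1, a matrix gene of fibroblasts and sclera, had 83.6, 69.5 and 90.5 CPM with PBS, 83.9, 2.8 and 1.87 CPM with fluvastatin, and 2.08, 1.37 and 63.5 CPM with MBV. The summed level of the 10 fibroblast and sclera markers was 94.9 to 125 CPM with PBS, 110 in fluvastatin replicate 1, 91.6 in MBV replicate 3 and 19.6 to 24.9 CPM in the other 4 libraries. With PBS and in these 2 libraries most of that sum was Fbln1, and the other markers did not all follow it. Pdgfra was at 13.5 to 19.8 CPM over all libraries, and Islr and Prrx1 were at 2.92 and 1.07 CPM in fluvastatin replicate 1, beside 5.05 to 8.55 and 1.92 to 2.43 CPM with PBS. Of these markers 6 reached 1 CPM in any library, 4 were called lower with fluvastatin and 4 with MBV, and the defining markers Dcn and Lum were at 0.137 to 2.56 and 0 to 0.76 CPM. The 6 ciliary body and iris markers, 2 of them called lower with fluvastatin and 4 with MBV, summed to 98.3 to 126 CPM with PBS, 98.7 in fluvastatin replicate 1, 86.8 in MBV replicate 3 and 60.4 to 74.9 CPM in the other 4. Among the 6 retinal markers, Glul, an enzyme of Müller glia, had 2592, 2489 and 1915 CPM with PBS, 1997, 1059 and 819 CPM with fluvastatin, and 1120, 598 and 1965 CPM with MBV. With it the sum of that list was 3666 in fluvastatin replicate 1 and 3631 in MBV replicate 3, beside 1995 to 2726 CPM in the other 4 treated libraries. The genes most like Col18a1 over the 9 libraries, looked up after its pattern was seen, were Sned1 (r = 0.995), Fbn1 (0.991), Slc13a4 (0.990), Siae (0.989) and Optc (0.988). The part of these cells in the levels of Col18a1 and the other 6 genes was not tested.

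**Figure D4:**
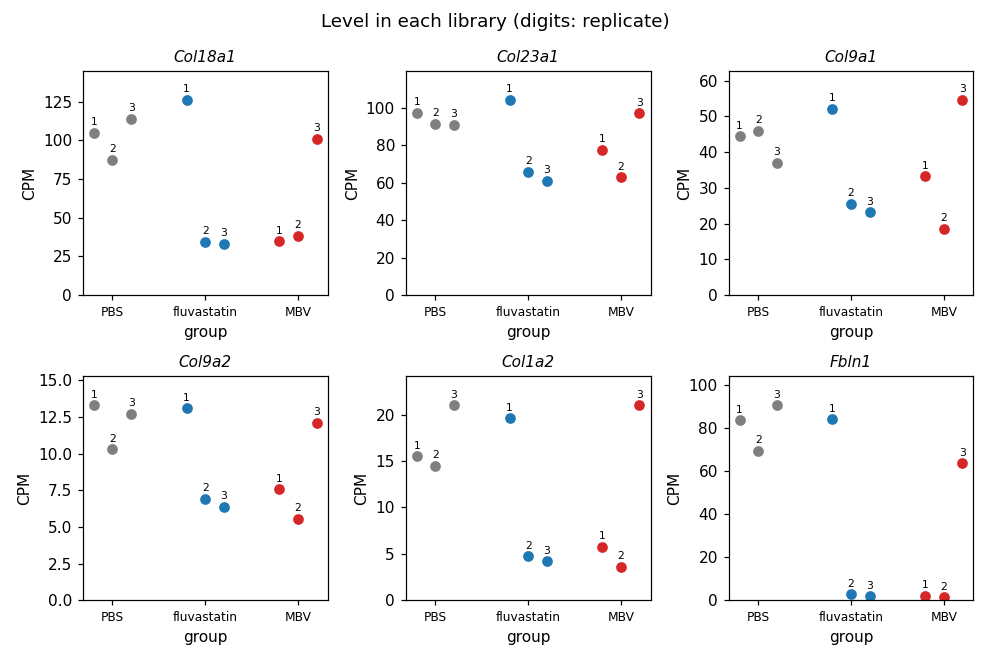
CPM in each library (points, numbered by replicate) of Col18a1, Col23a1, Col9a1, Col9a2, Col1a2 and the marker Fbln1 with PBS (grey), fluvastatin (blue) and MBV (red). Fluvastatin replicate 1 and MBV replicate 3 lie near the PBS libraries, and the other 4 treated libraries lie below them.

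In fluvastatin replicate 1 and MBV replicate 3, Col6a1 stood at 160% and 188% of the PBS mean and Col7a1 at 194% and 188%, but Col8a2 and Col6a4 stood at 103% and 92.4% of it in fluvastatin replicate 1. The 9 mural cell markers summed to 86.4 to 114 CPM with PBS, 98.2 to 117 CPM with fluvastatin and 100 to 126 CPM with MBV, with 3 of 9 called higher with MBV and 1 lower with fluvastatin, and the 8 endothelial markers to 393 to 443, 348 to 380 and 355 to 415 CPM, with 1 called higher with MBV and 1 lower with fluvastatin. Most of the endothelial sum was Kdr and Flt1, with PBS means of 247 and 143 CPM and negative log2 changes with both treatments. The median log2 change of the 8 endothelial markers was 0.25 with fluvastatin and 0.41 with MBV. Pigment cell markers were lower in every treated library, at 24.8 to 41.7 CPM summed over 7 genes beside 95.2 to 145 CPM with PBS, with 5 called lower with fluvastatin and 6 with MBV. Lens markers summed to 44 to 123 CPM with MBV, beside 2.32 to 5.82 CPM with PBS and 2.97 to 15.9 CPM with fluvastatin, with 7 of 8 called higher with MBV. Of the other marker lists, 6 corneal and surface epithelium genes summed to 0.685 to 8.49 CPM (1 lower with fluvastatin, 4 lower with MBV), 6 Schwann cell genes to 18.3 to 25.9 CPM (1 higher and 1 lower, then 1 lower) and 7 pigment epithelium genes to 223 to 317 CPM (3 higher and 1 lower, then 1 and 1). Most of that last sum was Rlbp1, also a retinal marker here and the 1 called lower. The median log2 change of the 7 was 0.80 with fluvastatin and 0.47 with MBV. Ttr, called higher in both comparisons, had 20.4, 24.4 and 18 CPM with PBS. It had 26.4, 59.1 and 54.2 CPM with fluvastatin, and 24.5, 40.3 and 51.2 CPM with MBV. The part of any of these cells in the collagen levels was not tested.

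Base composition also moved with the comparisons against PBS. The GC content of the 37 members, pooled over each gene's annotated transcripts, was 44.2% (Col19a1) to 63.3% (Col11a2). The median was 55.2%, beside 50.2% over all genes past the count minimum. Among all such genes with a GC content over 60%, 26.2% were called higher with fluvastatin and 30.6% with MBV, and of those at 40% or less only 1.2% and 1.89%, while 40.7% and 42.1% of the latter were called lower. Of the 19 members over 55%, 7 were called higher with fluvastatin and 8 with MBV, beside 22.1% and 26.8% of all 3605 genes over 55%. Of the other 18 members, 7 and 8 were called higher, beside 8.16% and 10.9% of all genes at 55% or less.

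With an offset that removes the GC trend in each library, a setting added after the data were seen, 11 members were called higher and 2 lower with fluvastatin, beside 6.11% and 5.83% of all genes, and 14 higher and 1 lower with MBV, beside 9.71% and 10.5%. The calls lost with fluvastatin were Col3a1 (log2 0.73 after correction, adjusted p = 0.0756), Col5a3 (log2 0.55, adjusted p = 0.0858) and Col8a2 (log2 0.55, adjusted p = 0.122). With MBV they were Col1a1 (log2 0.50, adjusted p = 0.149) and Col5a1 (log2 0.24, adjusted p = 0.125). Col6a1, Col7a1, Col20a1 and Col19a1 were still called in both comparisons.

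**Figure D5:**
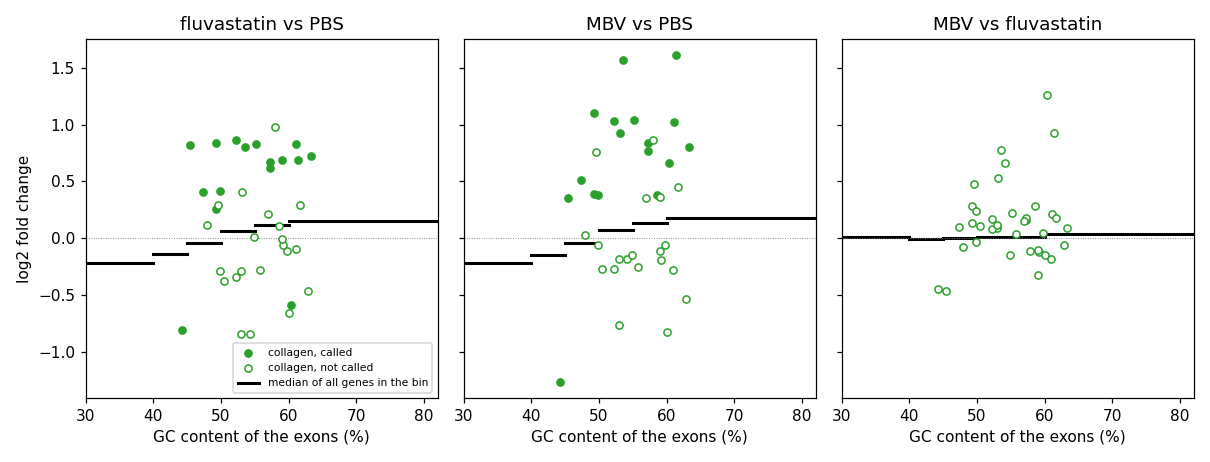
Log2 fold change against GC content for the 37 collagen genes (green points, filled where called) in each comparison, with the median of all genes in each GC bin (black bars). GC content, labelled as that of the exons, was pooled over each gene's annotated transcripts. The bars climb from -0.22 to 0.15 with fluvastatin and from -0.22 to 0.18 with MBV, and stay between -0.01 and 0.04 for MBV against fluvastatin.

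Between MBV and fluvastatin, no member was called at an adjusted p under 0.05. With edgeR's test, 7 of the 37 had an unadjusted p under 0.05 (Col1a1, Col3a1, Col5a3, Col8a1, Col6a1, Col6a4 and Col19a1), beside 10.7% of all genes, and DESeq2 called 2, Col1a1 and Col5a3, both higher with MBV. Without MBV replicate 3, edgeR called the same 2. By edgeR's test with all 6 libraries, 0.0267% of all 18721 genes were called higher and 0.032% lower. These shares do not apply to DESeq2 or to the fit without MBV replicate 3, whose shares are not given. Col5a3 had a log2 difference, MBV minus fluvastatin, of 0.93 ± 0.14 SE (adjusted p = 0.0856) and Col1a1 of 1.26 ± 0.22 SE (adjusted p = 0.134), and in neither did the groups overlap. Without fluvastatin replicate 1 and MBV replicate 3, which leaves 2 libraries against 2, 4 members were called higher with MBV (Col1a1, Col5a3, Col6a1 and Col7a1) and 3 lower (Col8a1, Col8a2 and Col9a3), beside 4.71% called higher and 4.22% called lower of 18453 genes.

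Collagen chains need enzymes to be folded and crosslinked, partner proteins on the fibril and receptors on cells, and 55 such genes in 4 lists were counted. With fluvastatin 10 rose and 8 fell, and with MBV 12 rose and 10 fell, with list medians of -0.06 and 0.04 on the log2 scale. These counts stand beside 9.36% higher and 10.2% lower of all genes with fluvastatin and 12% and 14.1% with MBV. None was called between MBV and fluvastatin. Without fluvastatin replicate 1 and MBV replicate 3, 13 rose and 15 fell with fluvastatin, 16 rose and 14 fell with MBV, and between the treatments 6 were called higher with MBV (P4ha1, Plod1, Plod2, P3h3, Serpinh1 and Loxl4) and 2 lower (P4hb and Mia3). Of all genes in these fits, 11.4% were called higher and 12.1% lower with fluvastatin, and 14% and 16.1% with MBV. Between the treatments the shares were 4.71% higher and 4.22% lower with MBV. The smallest adjusted p among those that rose with fluvastatin belonged to Sparc, a collagen chaperone and binder (log2 0.60, adjusted p = 0.000287), the propeptide removal enhancer Pcolce2 (log2 0.72, adjusted p = 0.00183), the lysyl hydroxylase Plod1 (log2 0.55, adjusted p = 0.00294) and the prolyl 3-hydroxylase P3h3 (log2 0.48, adjusted p = 0.00383). With MBV they were Plod1 (log2 0.71, adjusted p = 0.000409), Sparc (log2 0.64, adjusted p = 0.000778), fibronectin Fn1 (log2 1.05, adjusted p = 0.000905) and the crosslinking enzyme Loxl2 (log2 0.59, adjusted p = 0.00142). Sparc had 178, 177 and 195 CPM with PBS, 281, 290 and 264 CPM with fluvastatin, and 279, 262 and 324 CPM with MBV, without overlap.

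Those that fell included small proteoglycans that bind fibrils. With fluvastatin the smallest adjusted p belonged to decorin, Dcn (log2 -2.16, adjusted p = 0.00455), lumican, Lum (log2 -2.58, adjusted p = 0.00771), the folding enzyme Fkbp14 (log2 -0.42, adjusted p = 0.00829) and the endoplasmic reticulum channel gene Tmem38b (log2 -0.38, adjusted p = 0.00916). With MBV they were the folding enzyme Ppib (log2 -0.22, adjusted p = 0.0129), osteoglycin, Ogn (log2 -2.13, adjusted p = 0.0187), the collagen galactosyltransferase Colgalt2 (log2 -0.25, adjusted p = 0.0225) and Crtap, a partner of prolyl 3-hydroxylation (log2 -0.62, adjusted p = 0.0237). Ogn had 11.3, 8.29 and 10.6 CPM with PBS, 7.33, 0.748 and 0.848 CPM with fluvastatin, and 1.02, 0.685 and 5.26 CPM with MBV, with its highest treated values in the libraries that also held the most Fbln1. Without MBV replicate 3 its log2 change with MBV was -3.53 (adjusted p = 1.12e-06), and without fluvastatin replicate 1 that with fluvastatin was -3.65 (adjusted p = 2.25e-07), beside -1.77 (adjusted p = 0.0629) with it. Both libraries were picked after the values were seen, so the smaller p-values of Ogn are no further support. By list, synthesis and folding genes had 4 higher and 3 lower of 20 with fluvastatin and 5 and 5 with MBV, propeptide removal and crosslinking genes 3 and 0 of 13 and 3 and 1, fibril-associated proteins 2 and 4 of 11 and 2 and 3, and receptors 1 and 1 of 11 and 2 and 1. Dcn, Lum and Thbs2 of the fibril-associated proteins are also fibroblast markers here.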

How the data were processed

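Total RNA of 12 whole retinas was sequenced (TruSeq Total RNA, paired-end reads). The authors used CLC Genomics Grid Workbench to align reads to GRCm39 and deposited raw counts per gene, with no normalization. Multi-mapping and strand settings are not given in the sources used here, so reads of Col18a1, Col9a3, Col10a1, Col6a4 and Col6a6 cannot be told apart from those of genes on the other strand, and Col1a2, Col5a2, Col6a3 and Col25a1 overlap predicted genes on their own strand. The deposited tables also hold the authors' fold changes and p-values, which were not used. Left out as well were 6 count columns of the combined treatment, whose headers name no library.

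Counts of the other 9 libraries, 21349516 to 30992040 per library, were analysed with edgeR 4.0.16 in R 4.3.3. For each pair of groups, all genes with any count were kept, libraries were scaled by TMM, and the quasi-likelihood test was fitted to these 6 libraries, with Benjamini-Hochberg adjustment over all genes. This procedure was tested on simulated data. A member was called at an adjusted p under 0.05. Levels are TMM-scaled CPM with SDs, and fold changes have SEs. Exon lengths and GC content came from GENCODE (GRCm39), matched by gene ID for 25493 of 25655 genes. GC content was pooled over all annotated transcripts of a gene. Overlaps were taken between whole gene spans, at the positions deposited with the counts. In the GC correction, each library's log2 CPM was first taken as its difference from the gene's mean over the libraries compared. A lowess trend (span 0.3, genes with a mean count of 20 or more) of this difference on GC content was an offset. Likeness between genes was the Pearson r of log2(CPM + 0.5). Alternatives were RLE size factors, DESeq2 1.42.0, a minimum of 10 counts in 2 libraries, 1 fit of all 9 libraries, a replicate block, leaving out single libraries, and a minimum change of 2-fold.

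Named with every library's value were members called in any comparison and, in each class, the member of highest CPM per kb with PBS. Of the 55 related genes, up to 4 per direction and comparison were named by the smallest adjusted p. Fbln1, Glul, Sparc, Ogn, Col1a2 and Ttr were given per library after their values were seen. Of the retinal marker list, 2 genes are not reported here. The members and lists were chosen with earlier results of these data known. Tables were handled with Python 3.11.15.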

Additional observations from a re-analysis of the deposited data

How the results depend on the processing

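Among the log2 fold changes of the 33 calls of members against PBS, none changed sign in the 429 values from the alternatives; 371 were still called and 58 were not. Against PBS, 16 members were called with fluvastatin and 17 with MBV. Leaving out 1 library gave 7 to 24 with fluvastatin (6 to 15 higher, 1 to 9 lower), and 13 to 25 for MBV, 12 to 17 of them higher and 1 to 8 lower. The lowest came without fluvastatin replicate 2 (7) and PBS replicate 2 (13), and the highest without fluvastatin replicate 1 and MBV replicate 3. With a fold change of at least 2 as a further condition, fluvastatin had 0 members called (0 higher, 0 lower) and MBV had 7, 6 of them higher. With fluvastatin, DESeq2 and the fit of all 9 libraries each called 1 lower. With GC correction and without fluvastatin replicate 1 and MBV replicate 3, 9 were lower with fluvastatin and 8 with MBV. Between MBV and fluvastatin, 0 were called, against 2 by DESeq2 (2 higher), 0 to 2 without 1 library (0 to 2 higher), 7 without both libraries (4 higher, 3 lower) and 8 with the GC correction in addition (4 higher, 4 lower). The GC correction and the joint removal of 2 libraries were chosen after seeing the data. The cause of these changes was not tested. Shares of all genes are given above for the main fit, the GC correction, and the fits without fluvastatin replicate 1 and MBV replicate 3. For the other settings they are not given, so those member counts have no share beside them. Deviations from the group means had a Pearson r from -0.563 to 0.363 between samples with the same replicate number. Between samples with different numbers it ran from -0.454 to 0.55. These ranges cannot settle whether the numbers pair the samples, and the labels do not say so. A replicate block called 15 members for fluvastatin, of which 13 were higher and 2 lower, 17 for MBV, of which 15 were higher and 2 lower, and 0 between the treatments. Comparisons of the combined treatment were not run, since its counts carry no library name. Among the members that passed, depth limits Col13a1, Col6a5, Col3a1 and Col14a1, which rest on 37 counts or fewer per PBS library.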
